A study of Mus musculus with 8 samples.

Results

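The chemokine receptors described here are Ccr1, Ccr2, Ccr7, Cxcr2, Cxcr3, Cxcr4, Cxcr5 and Cx3cr1, which were measured in whole spinal cord RNA of mice with experimental autoimmune encephalomyelitis (EAE), a mouse model of multiple sclerosis, and of healthy control mice. Every probe set of the Affymetrix MG U74Av2 array that is annotated with one of these symbols was taken. This gave 8 probe sets, 1 for each receptor, of 12422 probe sets and 8251 genes tested. All mice were SJL/J females, aged 8 to 12 weeks by the labels and 8 weeks by the study's methods. EAE was induced with a PLP peptide given under the skin of the flank, and the EAE mice were killed at a clinical grade of 2.5 to 3.0 between day 12 and day 17, with an average grade of 2.5 on the sample labels. By the study's methods, the peptide was given in complete Freund's adjuvant with Mycobacterium tuberculosis, and pertussis toxin was injected into the abdomen. Control mice received the vehicle alone. The methods do not say whether controls received the adjuvant or the toxin, so neither can be told apart from the EAE. The EAE mice also received mouse serum albumin (0.1% in 100 µl) into a vein 3 hours before they were killed, and no such injection is named for the controls, so the albumin and the EAE cannot be told apart. The cords came from perfused mice. Each array held a pool of 2 cords, so that 10 EAE mice filled 5 arrays and 6 control mice filled 3. By their labels the arrays fell in 5 batches, of which batches 1, 2 and 3 paired an EAE with a control array and the last 2 had no control. The study's methods do not say what a batch stands for.

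Chemokine receptors are G protein-coupled receptors of the cell surface that steer leukocytes along gradients of chemokines, small secreted proteins. Ccr1 and Ccr2 are carried by monocytes and macrophages, Cxcr2 by neutrophils, Cxcr3 by activated T cells, Ccr7 by naive and central memory T cells and mature dendritic cells, and Cxcr5 by B cells and follicular helper T cells. Cx3cr1 is the fractalkine receptor of microglia, the resident macrophages of the central nervous system, and Cxcr4 is found on many leukocytes and on neural cells. In EAE, monocytes and T cells enter the spinal cord from the blood. In RNA of whole cords, more cells that carry a receptor and more receptor RNA in each cell cannot be told apart.

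Across all arrays, the quartiles of the log2 signal were nearly the same, with lower quartiles of 5.14 to 5.18, medians of 6.08 to 6.13 and upper quartiles of 7.37 to 7.42. The labelled tissue was borne out by the spinal cord markers. All 11 measured markers of neurons, oligodendrocytes and astrocytes lay above the lower quartile on at least 1 array, and their mean log2 signal was 9.71 to 9.83 on the control arrays and 9.41 to 9.58 on the EAE arrays. Of these markers 1 was higher and 5 were lower in EAE (median log2 fold change -0.42), against 9.19% of all genes higher and 13.5% lower. As a sign of RNA degradation, the 3' minus the 5' signal of Gapdh was largest on EAE arrays 1 and 4, at 1.46 and 2.07 on the log2 scale against 0.46 to 0.97 on the other 6 arrays. For beta-actin it was largest on the same 2 arrays, at 2.35 and 2.79, but control arrays 1 and 2 came close to array 1 at 2.2 and 2.29. In the fit without a batch term, leaving out both arrays gave log2 fold changes of 2.67 for Ccr1 and 1.91 for Ccr2 (limma, adjusted p = 1.53e-06 and 0.000191).

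Among the 8 receptors, Ccr1 and Ccr2 rose in EAE and the other 6 were not called in either direction. Ccr1 was 5.98-fold higher (95% confidence interval 5.01 to 7.14) and Ccr2 was 4.09-fold higher (3.11 to 5.38), and the fold of the other receptors lay between 1.0 and 1.4. At limma's adjusted p under 0.05, 2 of 8 receptor probe sets were thus higher and 0 of 8 were lower, against 8.26% of all probe sets higher and 11.4% lower. Without adjustment, 4 receptors had a limma p under 0.05, all of them higher (Ccr1, Ccr2, Cxcr3 and Cxcr4), and 0 were lower. A p under that level without adjustment, in either direction, was found for 32.9% of all probe sets. The median log2 fold change of the 8 receptors was 0.21, beside -0.05 for all probe sets. For 5 of the 8 receptors (Ccr1, Ccr2, Ccr7, Cxcr2 and Cxcr3) every EAE array lay above every control array, which was so for 10.9% of all probe sets. For 0 receptors every EAE array lay below every control array, against 15.1% of all probe sets. Cxcr4, Cxcr5 and Cx3cr1 had groups that overlapped.

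**Figure D1:**
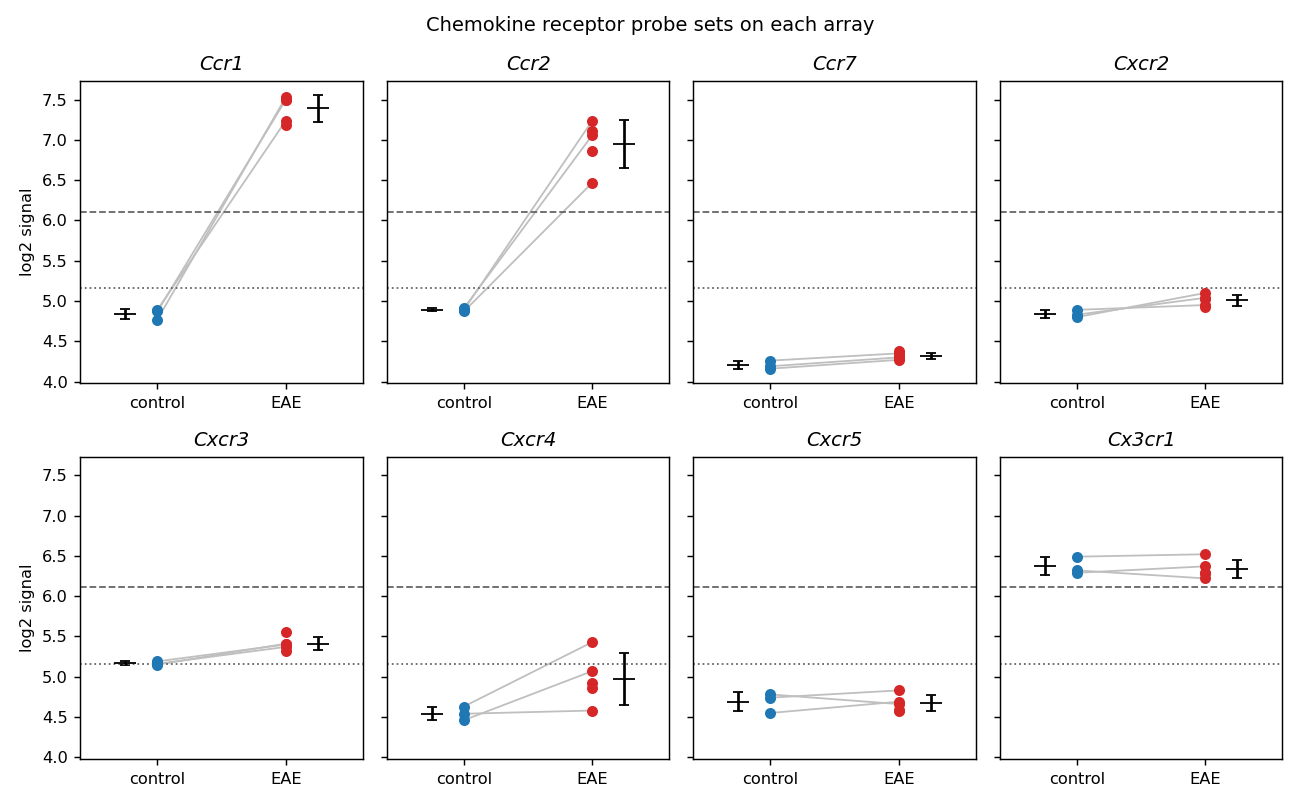
Log2 signal of each receptor probe set on the 5 EAE and the 3 control arrays, 1 point per array, with bars for the group mean ± SD and grey lines joining the arrays of batches 1 to 3. The dotted and dashed lines are the mean lower quartile and mean median of all probe sets. Ccr1 and Ccr2 are the 2 receptors whose groups lie far apart, by a gap of 2.29 and 1.56.

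Ccr1 binds Ccl3, Ccl5 and, in mice, Ccl6 and Ccl9. Its log2 signal was 7.24, 7.53, 7.5, 7.18 and 7.49 on EAE arrays 1 to 5 and 4.89, 4.77 and 4.87 on control arrays 1 to 3. All 5 EAE arrays were high and close together, and the groups did not overlap. The EAE mean was 7.39 ± 0.17 (SD, n = 5 arrays) and the control mean 4.84 ± 0.06 (SD, n = 3 arrays). With batch in the model, limma gave a log2 fold change of 2.58 with a standard error of 0.0999 (adjusted p = 0.000323), and the difference within batches 1, 2 and 3 was 2.34, 2.76 and 2.63. The rise of Ccr1 was number 98 of 12422 when all probe sets were ordered by log2 fold change. A two-sided exact permutation test, in which the 8 arrays were regrouped in all 56 ways, gave p = 0.0179, which is the smallest value it can give.

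Ccr2 is the receptor for Ccl2, Ccl7, Ccl8 and Ccl12 and marks inflammatory monocytes, which need it to leave the bone marrow. Its log2 signal was 7.24, 7.06, 6.47, 7.11 and 6.86 on EAE arrays 1 to 5 and 4.89, 4.91 and 4.87 on the control arrays. The groups did not overlap, and EAE array 3 was the lowest of the EAE arrays. The EAE mean was 6.95 ± 0.3 (SD, n = 5 arrays) and the control mean 4.89 ± 0.02 (SD, n = 3 arrays). In limma the log2 fold change was 2.03 with a standard error of 0.154 (adjusted p = 0.00199), with 2.35, 2.15 and 1.6 in batches 1 to 3, and the rise was number 155 of 12422. The exact permutation p was 0.0179 here as well. This test took no account of batch. The uncalled Ccr7 and Cxcr3 had the same exact permutation p of 0.0179, so it does not set Ccr1 and Ccr2 apart from them. The control values of both receptors lay below the lower quartile of every array, where a fold from RMA values can be too small. Both calls need limma's moderation of the variances. In the same linear model without it, the adjusted p was 0.123 for Ccr1 and 0.157 for Ccr2, and 1 probe set of 12422 was called.

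In 28 pairwise comparisons of the change, made after the data had been seen, with exact permutation p-values adjusted over the 28 pairs, Ccr1 rose more than each of the 6 uncalled receptors by 2.11 to 2.57 on the log2 scale and Ccr2 by 1.63 to 2.08, each with an adjusted p of 0.0417 by the exact test. These 12 pairs shared the smallest p that the test can give, and all of them hold Ccr1 or Ccr2. The receptors were split into called and uncalled on these same arrays, so these p-values add no support to that split. The regroupings took no account of batch. Within batches there are only 8 regroupings, which cannot give a p below 0.25, so these differences were not tested within batches, and the batch values of Ccr1 minus an uncalled receptor were 1.73 or more and those of Ccr2 0.79 or more. Ccr1 and Ccr2 differed from each other by 0.49, which was not called (exact p = 0.0714, adjusted p = 0.118), with -0.0016, 0.61 and 1.04 in batches 1 to 3. Of the other pairs, Cxcr4 minus Cx3cr1 came closest to the threshold with a difference of 0.46 (exact p = 0.0357, adjusted p = 0.0769).

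The place of each receptor among all probe sets of its array changed in the same way. On the control arrays, 6 of the 8 receptors (Ccr1, Ccr2, Ccr7, Cxcr2, Cxcr4 and Cxcr5) lay below the lower quartile of every array, a range in which signal and background are hard to separate. On the EAE arrays, 3 of them (Ccr7, Cxcr2 and Cxcr5) lay below it on every array. Ccr1 stood at percentiles 15.1 to 18.2 of the control arrays and 71.1 to 77.2 of the EAE arrays. Ccr2 stood at percentiles 17.0 to 18.9 and 57.9 to 72.6. Ccr7 stayed between percentiles 3.8 and 6.8 on all 8 arrays, and Cx3cr1 between 52.2 and 58.9.

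**Figure D2:**
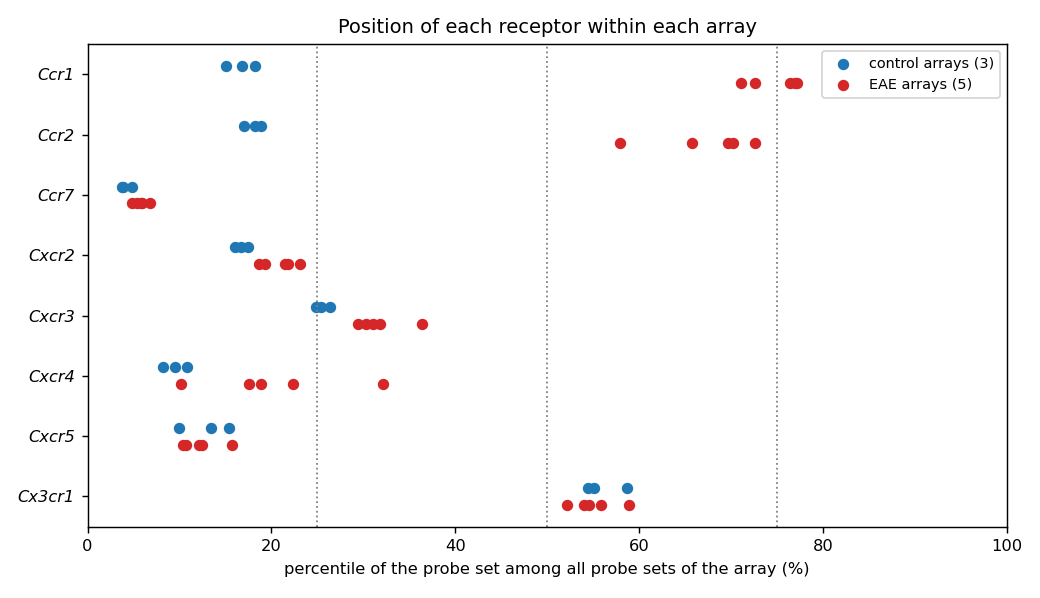
Percentile of each receptor probe set among the 12422 probe sets of its own array, 1 point per array, for EAE and control. Ccr1 and Ccr2 stand between 15.1 and 18.9 on the control arrays and between 57.9 and 77.2 on the EAE arrays, while Ccr7 stays at 6.8 or lower on all arrays.

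Cxcr3, the receptor for Cxcl9 and Cxcl10, showed a small difference in the same direction on every array. Its log2 signal was 5.4, 5.41, 5.37, 5.32 and 5.55 in EAE and 5.19, 5.15 and 5.16 in control. The groups did not overlap, with a gap of 0.13, and EAE array 5 was the highest. The log2 fold change was 0.23 with a standard error of 0.0631 (limma, adjusted p = 0.0648), and it was 0.21, 0.26 and 0.22 within batches 1 to 3. Cxcr3 thus missed the threshold with batch as a block. It passed without the block (adjusted p = 0.0259), with batch as a random block (0.0154) and with an intensity trend in limma (0.0365).

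Cxcr4, the receptor for Cxcl12, had the widest range of the 8 receptors over the EAE arrays, at 0.86. Its log2 signal was 5.07, 4.58, 5.43, 4.92 and 4.86 in EAE and 4.46, 4.54 and 4.63 in control. EAE array 2 lay below control array 3, so the groups overlapped, and EAE array 3 was the highest. The log2 fold change was 0.49, with a 95% confidence interval of 0.08 to 0.89 (adjusted p = 0.103 by limma, exact permutation p = 0.0714). Within batches 1, 2 and 3 it was 0.61, 0.03 and 0.81, and without EAE array 2 or control array 2 it was 0.71 and passed the test (adjusted p = 0.0307). Without either array of batch 1 it was 0.42 (limma, adjusted p = 0.241), and without either array of batch 3 it was 0.32 (0.38).

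Cxcr2, the receptor for the neutrophil-attracting chemokines Cxcl1, Cxcl2 and Cxcl5, was at a log2 signal of 5.1, 5.04, 4.95, 5.02 and 4.93 in EAE and 4.8, 4.83 and 4.89 in control. The groups were parted by a gap of only 0.04. The log2 fold change was 0.19 (95% confidence interval -0.0049 to 0.39, adjusted p = 0.16 from limma). Ccr7, the receptor for Ccl19 and Ccl21, was at 4.27, 4.3, 4.35, 4.38 and 4.32 in EAE and 4.16, 4.19 and 4.26 in control. These groups were parted by 0.01, and the log2 fold change was 0.1 (95% confidence interval -0.06 to 0.26, adjusted p = 0.349 from limma). For both receptors all arrays lay below the lower quartile, and the interval leaves room for a fold of up to 1.31 for Cxcr2 and 1.2 for Ccr7.

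Cx3cr1 and Cxcr5 showed no difference that could be told from 0. Cx3cr1 was at 6.37, 6.22, 6.52, 6.29 and 6.29 in EAE and 6.29, 6.32 and 6.49 in control, near the median of each array. EAE array 3 and control array 3, which share a batch, were the highest of their groups. The log2 fold change was 0.0026, and its 95% confidence interval of -0.18 to 0.18 corresponds to a fold of 0.884 to 1.14 (adjusted p = 0.988 from limma). Cxcr5, the receptor for Cxcl13, was at 4.69, 4.66, 4.83, 4.59 and 4.57 in EAE and 4.55, 4.78 and 4.74 in control. The groups overlapped, and the log2 fold change was 0.036 (95% confidence interval -0.17 to 0.24, adjusted p = 0.819 from limma).

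The promoters of a receptor that rose and of one that did not are shown to set them side by side. RefSeq entries for the assembly GRCm38.p6, whose reference strain is C57BL/6J and not SJL/J, were matched for 6 of the 8 receptors (Ccr1, Ccr2, Cxcr2, Cxcr3, Cxcr4 and Cx3cr1). The 250 bases before the annotated start are given 5' to 3' on the strand of the gene, which is the minus strand of chromosome 9 for both. The positions are chr9:123968693-123968942 for Ccr1 and chr9:120068297-120068546 for Cx3cr1, and capitals mark matches to a searched motif.
Ccr1: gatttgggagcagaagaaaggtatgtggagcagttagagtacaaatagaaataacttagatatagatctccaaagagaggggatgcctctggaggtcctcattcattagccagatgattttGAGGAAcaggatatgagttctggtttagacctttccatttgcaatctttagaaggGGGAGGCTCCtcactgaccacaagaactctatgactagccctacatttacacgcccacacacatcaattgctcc
Cx3cr1: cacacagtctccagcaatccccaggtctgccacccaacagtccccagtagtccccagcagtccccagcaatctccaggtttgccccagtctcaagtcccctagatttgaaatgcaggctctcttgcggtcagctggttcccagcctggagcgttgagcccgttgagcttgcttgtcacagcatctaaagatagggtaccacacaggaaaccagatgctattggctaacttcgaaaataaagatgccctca
The motifs were searched on both strands. They were the core bound by the myeloid factor PU.1 (GAGGAA), a kappaB site (GGGA and CC with 4 bases of any kind between them), an interferon-stimulated response element (GAAA, any 2 bases, GAAA), a STAT site (TTC, any 3 bases, GAA) and a C/EBP site (TTGC, any 2 bases, AA). The Ccr1 window held GAGGAA from 129 bases and a kappaB match from 74 bases before the start. The Cx3cr1 window held no match to any of the 5. GAGGAA also stood once each in the Cxcr2 and Cxcr3 windows, and no other match was found in the 6 windows. Of all 32851 promoters, 23.3% held GAGGAA, 17.6% the kappaB letters, 2.98% the interferon element, 7.02% the STAT site and 9.56% the C/EBP site, so a match to the first 2 is common in windows of this length. A match is a description of the letters and not evidence of binding.

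Ccr1 and Ccr2 lie in one cluster of chemokine receptor genes on chromosome 9, and the measured neighbours there were not called. In the order of protein-coding genes in the GRCm38.p6 gene table, Xcr1, Ccr1, Ccr1l1, Ccr3 and Ccr2 follow each other. Between the 2 receptors that rose, Ccr1l1 stood at a difference of 0.0081 on the log2 scale (limma, adjusted p = 0.955) and Ccr3, an eotaxin receptor of eosinophils, at 0.0064 (adjusted p = 0.97). Xcr1, a receptor of cross-presenting dendritic cells, had a log2 fold change of -0.09 and Ccr9, a gut-homing receptor, one of -0.029, and neither was called. Ccr1 and Ccr3 are close relatives in sequence. The probe sequences were not analysed here, so cross-hybridization between related receptors was not tested.

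Among the other chemokine receptors, 12 of 16 listed were measured, of which 1 was higher and 0 were lower (against 9.19% and 13.5% of all genes), with a median log2 fold change of 0.02. The 1 that rose was Ackr1, a chemokine-binding receptor of venular endothelium and red blood cells that does not signal through G proteins. Its log2 signal was 6.8, 7.57, 7.54, 7.17 and 7.91 in EAE and 6.28, 6.1 and 6.26 in control. The groups did not overlap, and the log2 fold change was 1.09 with a standard error of 0.194 (limma, adjusted p = 0.0211). The call was lost without the EAE or control array of batch 2 (adjusted p = 0.075) or batch 3 (0.135). Of 6 markers of Schwann cells and blood 2 were measured and 0 were called in either direction by limma, with 1 higher at an unadjusted p under 0.05. Of all probe sets, 32.9% had such an unadjusted p in either direction. Hba-a1, a hemoglobin chain, had a log2 fold change of 1.57 (adjusted p = 0.061) and Alas2, an enzyme of heme synthesis in red cell precursors, one of 0.11. The mean of both was 5.5 to 7.12 in EAE and 5.71 to 5.95 in control, and its part in the Ackr1 value was not tested. Ccrl2 (0.23, adjusted p = 0.0744) and Ccr6 (0.18, adjusted p = 0.123, and 0.0498 with batch as a random block) were not called, nor were Ccr4 (-0.13), Ackr2 (-0.06), Ackr3 (0.03), Ccr8 (0.09) and Ackr4 (0.1).

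**Figure D3:**
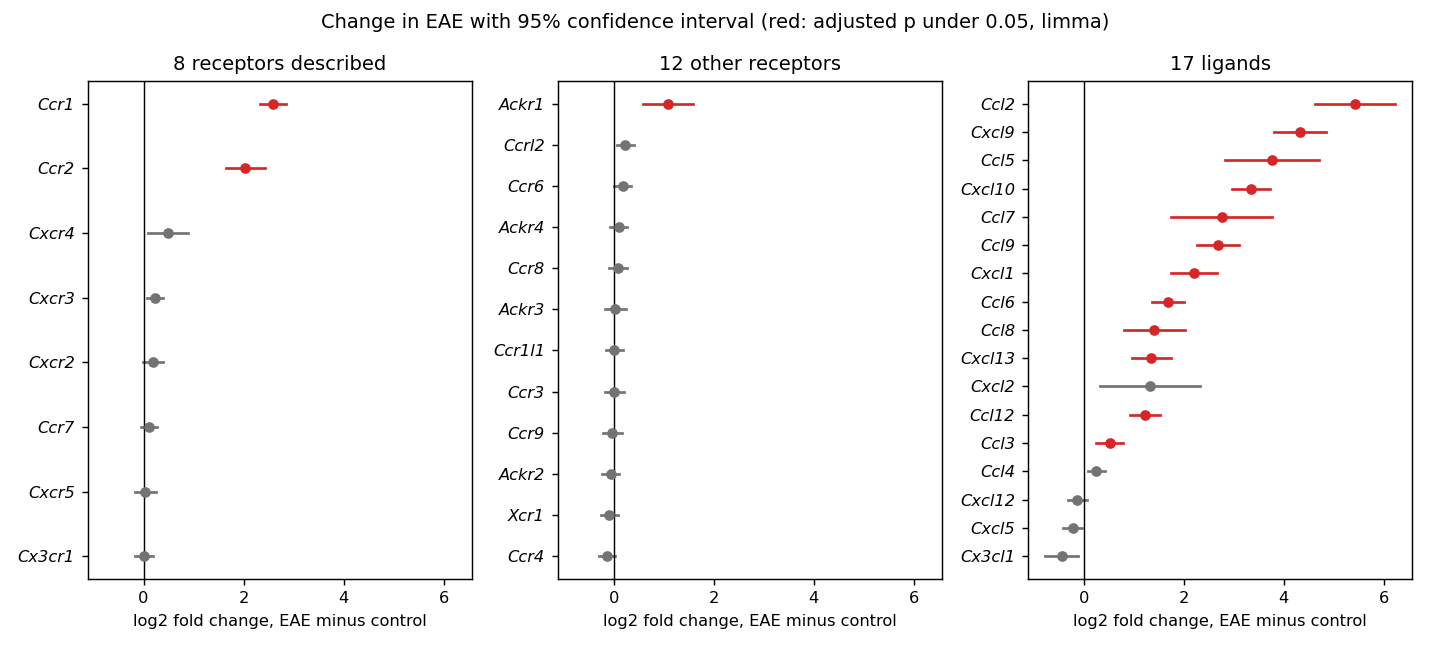
Log2 fold change of EAE over control with its 95% confidence interval from limma, for the 8 receptors, 12 other chemokine receptors and 17 ligands of the 8 receptors. Red marks an adjusted p under 0.05. Red are Ccr1, Ccr2 and Ackr1 among the receptors, and 12 of the 17 ligands.

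Most ligands of the receptors rose in EAE. Of 22 listed ligands of the 8 receptors, 17 were measured, 12 were higher and 0 were lower, against 9.19% and 13.5% of all genes, with a median log2 fold change of 1.41 (beside -0.05 for all genes). Without adjustment, 14 were higher and 2 were lower (Cx3cl1 and Cxcl5) at a limma p under 0.05. Such a p, in either direction, was found for 32.9% of all probe sets. The ligands of Ccr2 all rose. Ccl2, the main attractant of monocytes, was at a log2 signal of 10.12, 10.0, 8.66, 9.84 and 10.5 in EAE and 4.12, 4.2 and 4.21 in control. All EAE arrays were far above the controls, EAE array 3 least. Ccl2 rose by 5.42 with a standard error of 0.312 (limma, adjusted p = 0.000885). Ccl7 rose by 2.76 (adjusted p = 0.012), Ccl8 by 1.41 (0.0183) and Ccl12 by 1.23 (0.00403).

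Of the ligands of Ccr1, Ccl5 rose by 3.76 on the log2 scale with batch in the model (standard error 0.367, adjusted p = 0.00423 from limma). Its mean over all arrays of a group was 8.79 ± 0.69 (SD, n = 5 arrays) for EAE and 4.91 ± 0.07 (SD, n = 3 arrays) for control. Ccl9 rose by 2.69 (adjusted p = 0.00102), Ccl6 by 1.69 (0.00187) and Ccl3 by 0.52 (0.0289). The call of Ccl3 was lost without the EAE or control array of batch 1 (adjusted p = 0.0783) or batch 3 (0.158). Ccl4, which is close to Ccl3 in sequence, had a log2 fold change of 0.25 and was not called (adjusted p = 0.0657 in limma), but it passed without the batch block (0.0364) and with batch as a random block (0.0185).

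For several receptors that were not called, a ligand rose. Cxcl9 and Cxcl10, the interferon-induced ligands of Cxcr3, rose by 4.33 (standard error 0.2, adjusted p = 0.000486 from limma) and 3.35 (standard error 0.146, adjusted p = 0.000424). For Cxcr2, Cxcl1 rose by 2.2 (adjusted p = 0.00255) and by 2.06 in its second probe set, whereas Cxcl2 (1.32, adjusted p = 0.0795) and Cxcl5 (-0.22, adjusted p = 0.108) were not called. Without the batch block both passed, Cxcl2 as higher (adjusted p = 0.0306 in limma) and Cxcl5 as lower (0.0426). Cxcl13, the ligand of Cxcr5, was at 5.44, 4.94, 5.69, 5.6 and 5.23 in EAE and 3.97, 4.0 and 4.03 in control. Every EAE array was above the controls, and the log2 fold change was 1.35 (adjusted p = 0.00594 from limma). For Cxcl12, the ligand of Cxcr4, the 3 probe sets disagreed, with log2 fold changes of -0.13 (adjusted p = 0.311) in the brightest, 0.81 (0.0062) in another and -0.27 (0.069) in the last. Cx3cl1, fractalkine, the ligand of Cx3cr1, is made by neurons. Its log2 signal was 8.1, 8.94, 9.1, 8.66 and 8.84 in EAE and 8.74, 9.03 and 9.68 in control. The groups overlapped, and the log2 fold change of -0.44 was not called (adjusted p = 0.0753 from limma), with -0.04 in its second probe set.

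The EAE arrays differed among themselves in the ligands. The range over the 5 EAE arrays was 0.36 for Ccr1 and 0.77 for Ccr2, and 1.84 for Ccl2, 2.55 for Ccl7 and 1.78 for Ccl5. EAE array 3, the single pool from day 17, was the lowest EAE array for Ccr2 and for 5 of the 12 ligands that rose (Ccl2, Ccl7, Ccl9, Cxcl1 and Cxcl10), and the highest for another 5 (Ccl5, Ccl8, Ccl12, Cxcl9 and Cxcl13). Thus the ligands of Ccr2 did not move together across the EAE arrays. On EAE array 3, Ccl2 and Ccl7 stood at 8.66 and 5.71 against 9.84 to 10.5 and 7.19 to 8.27 on the other EAE arrays, while Ccl8 stood at 7.84 against 6.53 to 7.54. With 1 pool at this day, day and array cannot be told apart. EAE array 5, from day 15.5, was the highest for Ccl2, Ccl7, Cxcl1 and Cxcl10.

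**Figure D4:**
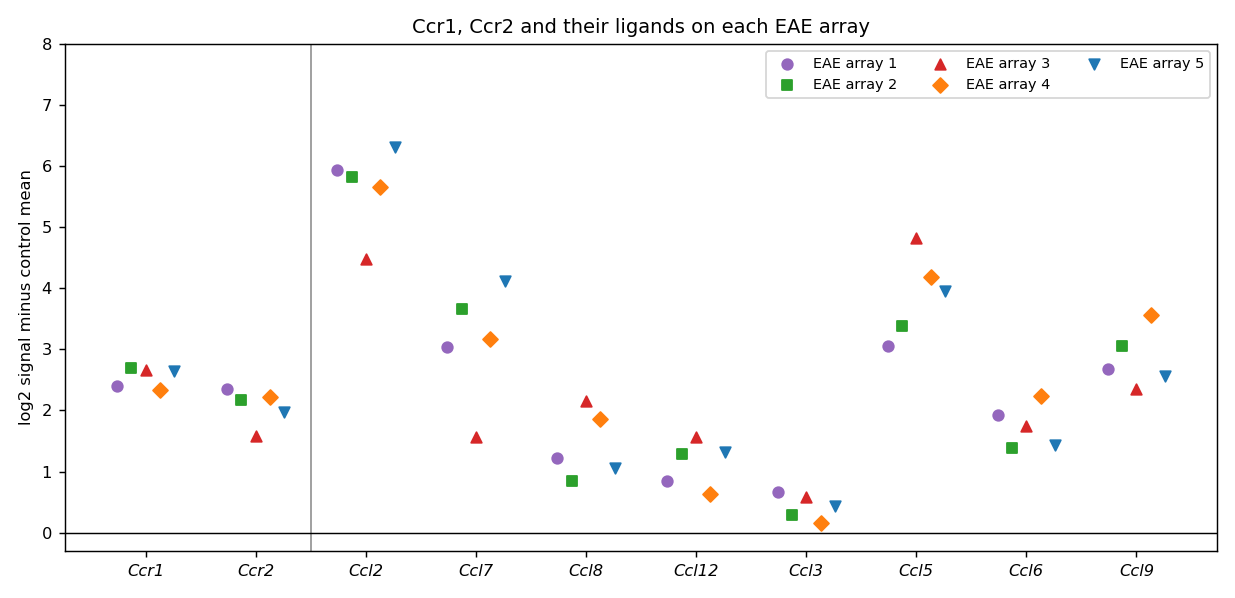
Log2 signal minus the control mean on each of the 5 EAE arrays, for Ccr1 and Ccr2 and for ligands of Ccr2 (Ccl2, Ccl7, Ccl8 and Ccl12) and of Ccr1 (Ccl3, Ccl5, Ccl6 and Ccl9), 1 point per array. On EAE array 3, Ccl2, Ccl7 and Ccr2 are at their lowest, and Ccl8, Ccl12 and Ccl5 are at their highest.

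Downstream of the receptors, 24 of 34 listed signalling genes were measured, of which 8 were higher and 1 was lower, against 9.19% and 13.5% of all genes, with a median log2 fold change of 0.25. Of 15 G proteins and effectors, 4 were higher, led by Rac2 (1.47, adjusted p = 0.000486 from limma), a GTPase of blood cells, and its activators Dock2 (1.38, adjusted p = 0.000603) and Vav1 (1.32, adjusted p = 0.00475). Rap1a, a GTPase of integrin activation, was the 1 that fell, by 0.57 (adjusted p = 0.0195), and is named after its value was seen. Of 9 genes that desensitize receptors or shorten G protein signals, 4 were higher and 0 were lower. They were the regulators of G protein signalling Rgs19 (0.41), Rgs16 (0.38) and Rgs14 (0.36) and the receptor kinase Grk6 (0.33). These 4 calls were lost without either array of batch 1, 2 or 3, and that of Rap1a without either array of batch 1 or 2. In the same fits Dock2, Rac2, Vav1 and Ptk2b stayed called. On EAE arrays 1 and 4, with the largest 3' minus 5' signal of Gapdh, Rgs14 stood at 7.15 and 7.12 against 6.87 to 6.9 on the other EAE arrays. Rgs19 stood at 7.91 and 8.15 against 7.62 to 7.82, while Rgs16 and Grk6 did not have both of their highest values there. Leaving out both arrays without the batch term, limma lost Vav1 (adjusted p = 0.0506) and Grk6 (0.136) and kept Rgs19, Rgs16 and Rgs14. The brightest probe set stood for each gene, and others could differ. Gnai2, a G protein, was not called in its brightest (0.3, adjusted p = 0.113 from limma). Its other probe sets were higher (0.5 and 0.47, adjusted p = 0.0292 and 0.0441). A further probe set each of Vav1 (-0.0047), Rgs19 (-0.05) and Rgs16 (0.27) was not called, while another of Vav1 (1.08) and of Rgs19 (0.45) was higher.

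Markers of several cell types were higher in EAE, as were Ccr1 and Ccr2. For the marker lists that follow, 9.19% of all genes were higher and 13.5% lower. All 12 measured of 14 monocyte and macrophage markers were higher (median log2 fold change 2.53), and their mean log2 signal was 8.27 to 8.71 on the EAE arrays and 5.61 to 5.69 on the control arrays, with none below the lower quartile on all arrays. The largest rises were those of Chil3 (6.26), Lyz2 (5.93) and Plac8 (3.45). Over the EAE arrays, the mean of these markers was highest on array 3 (8.71 against 8.27 to 8.46), where Ccr2 was lowest (6.47). The part of these markers in the rise of the receptors was not tested. Of 14 homeostatic microglia markers only 4 were measured, of which 3 were higher (Csf1r at 1.51, Mertk at 1.01 and Selplg at 0.88) and Slc2a5 was not called (-0.1). Their mean was 7.34 to 7.67 in EAE and 6.55 to 6.75 in control, beside a Cx3cr1 log2 fold change of 0.0026. Csf1r, Mertk and Selplg are also expressed by other myeloid cells, so how many microglia the cords held cannot be told from them.

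Markers of lymphocytes, neutrophils and dendritic cells are set here beside the receptors those cells carry. Of 13 measured of 15 T cell markers, 5 were higher and 0 lower (median 0.17), among them Cd2 (0.67), Cd3e (0.66) and Cd28 (0.52). The mean T cell signal was 5.68 to 5.83 in EAE and 5.47 to 5.52 in control, and Cd3g, Cd247 and Cd8b1 lay below the lower quartile on all arrays, beside the small difference of Cxcr3. Of 9 measured of 10 B cell markers, 0 were called in either direction by limma, and 1 was higher and 0 were lower at an unadjusted p under 0.05. An unadjusted p under that level was found for 32.9% of all probe sets in either direction. The mean of the B cell markers was 5.6 to 5.65 in EAE and 5.53 to 5.69 in control, with Ms4a1 at -0.18 and Pax5 at -0.013, beside a Cxcr5 value of 0.036. Of 12 measured of 14 neutrophil markers, 6 were higher and 0 lower (median 0.35, mean 6.56 to 6.87 against 5.49 to 5.56), led by S100a8 (4.54), S100a9 (3.4) and Mmp8 (2.39), of which S100a8 and S100a9 are also made by monocytes. The neutrophil marker Ly6g had a log2 fold change of 0.019 and was not called, and Mpo and Itgb2l were below the lower quartile on all arrays, beside a Cxcr2 value of 0.19. Of 10 measured of 12 dendritic cell markers, 4 were higher and 2, a share near that of all genes, were lower (median 0.06, mean 6.63 to 6.78 against 6.52 to 6.63), with Ccl17 at 0.74, Itgax at 0.71 and Flt3 at -0.5, beside a Ccr7 value of 0.1. The part of these markers in the receptor values was not tested.

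The probe sets whose pattern was most like that of each called receptor were sought by Pearson's r over the 8 arrays, which describes mainly the step between the 2 groups. For Ccr1 they were those of Fcgr1, a high-affinity antibody receptor of monocytes and macrophages, Slfn2 and Psmb8, an immunoproteasome subunit, each with r = 0.998. An r of 0.95 or more was shared by 332 probe sets. For Ccr2 they were Cytip, a regulator of leukocyte adhesion (r = 0.997), Gpx1, glutathione peroxidase 1 (0.997), and Entpd1, the ectonucleotidase CD39 (0.996), of 272 at that level. The log2 fold changes of these genes ranged widely, from 0.43 for Gpx1 to 4.75 for Psmb8, since r takes no account of size.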

How the data were processed

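Whole spinal cord RNA of 5 EAE and 3 control pools was measured on Affymetrix MG U74Av2 arrays. The deposited values are log2 signals, which the authors obtained with Partek Genomics Suite by RMA, quantile normalization and an adjustment for GC content, and they were not normalized again. RMA draws arrays towards one distribution, and fold changes of dim probe sets can be compressed. Groups and batches were taken from the labels. The 66 control probe sets were left out, and 12422 entered a linear model in limma 3.58.1 (R 4.3.3) with treatment and batch as fixed terms, after the 2 way analysis of variance in the methods. This left 2 residual and 3.05 prior degrees of freedom, and EAE arrays 4 and 5, alone in their batches, carry no weight in the difference. Tests were two-sided, with Benjamini-Hochberg adjustment over all probe sets and a threshold of 0.05. The pairing comes from the batch label, and deviations of arrays of the same batch from their group means correlated at 0.302, -0.231 and 0.412 in batches 1 to 3. Dim probe sets were kept. The brightest probe set stood for a gene in the other lists. Probe sets were named from the array annotation (10833 had 1 symbol, 396 several and 1193 none), and 10817 were matched to the gene table of GRCm38.p6. The members and the gene lists were chosen with earlier results of these data known. Named were all 8 receptors, their ligands and the other receptors, up to 3 called members with the largest change of each other list, or the 2 brightest where none was called, and the 3 most similar probe sets for each called receptor. Gnai2, Grk6, Ptk2b, Rap1a, Rgs3, Ly6g, Slc2a5 and the markers named as dim were named after their values were seen. The procedure was tested on simulated data. Precision is limited by the small number of pools. Figures were made in matplotlib 3.10.9.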

Additional observations from a re-analysis of the deposited data

Results flagged for a closer look

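The 5 EAE values of each named gene and of each list mean, 79 sets of values in all, were checked for an array far from the others, and 2 such sets were found, where chance alone marks about 1 in 20. The log2 signal of Ccl4 was 6.24 on EAE array 1 and 6.05 to 6.09 on the other EAE arrays. The log2 signal of Selplg, a ligand of selectins on leukocytes, was 8.49 on EAE array 5 and 8.33 to 8.36 on the others. None of the 8 receptors had such an array.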

How the results depend on the processing

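Of 21 alternative fits, 15 were distinct. EAE arrays 4 and 5 have no weight under the batch block, so leaving out either gave the same fit again, and leaving out the EAE or the control array of a batch, or EAE arrays 1 and 4 in place of array 1, gave one and the same fit. Ccr1 and Ccr2 rose in 14 of the 15 each, with log2 fold changes of 2.49 to 2.7 and 1.87 to 2.25 and adjusted p of 3.13e-07 to 0.123 and 1.82e-05 to 0.157. The exception was the model without moderation of the variances, which called 0 receptors, 0 ligands and 0 signalling genes higher and 0 signalling genes lower (2, 12, 8 and 1 with it) and 1 of all probe sets. Cxcr3 passed in 6 of 14 distinct fits (adjusted p of 0.0154 to 0.229), 4 of them without the batch block, and Cxcr4 in 1 of 14 (0.0307 to 0.391). Cxcr2, Ccr7, Cxcr5 and Cx3cr1 passed in none of those run. Brighter probe sets alone left Ccr1, Ccr2 and Cx3cr1 of the receptors.

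Without the batch block that pairs the arrays, 3 receptors were higher (Cxcr3 in addition), 14 ligands were higher (Ccl4 and Cxcl2 in addition) and 1 was lower (Cxcl5). With batch as a random block there were again 3 receptors and 14 ligands higher and 1 ligand lower, and 2 signalling genes were lower (Rap1a and Rgs3). Of all 12422 probe sets, 8.55% were higher without the block and 9.7% with the random block, against 8.26% in the main fit. Those lower numbered 1278, 1657 and 1412. With brighter probe sets alone 1 ligand was lower (Cx3cl1), as were 1233 of the 6211 probe sets kept. At an adjusted p under 0.01 there were 4 signalling genes higher and 0 lower, and at 2-fold or more 3 higher and 0 lower. Of all probe sets, 3.37% were called higher at 2-fold or more. The share of all probe sets at an adjusted p under 0.01 is not given, so the 4 signalling genes at that level cannot be set against it. Leaving out each array in turn gave 0 to 1 ligands lower (Cx3cl1 without the arrays of batch 2), 4 to 8 signalling genes higher and 0 to 1 lower. Every array with weight left 4 signalling genes higher, and the 8 came only from leaving out EAE array 4 or 5. Leaving out EAE arrays 1 and 4 under the block (also chosen after seeing the data), or array 1 alone, gave 4 higher and 0 lower. Without the block, further such alternatives left out EAE arrays 1 and 4 together, array 4 or array 5, and gave 3 receptors, 12 to 13 ligands and 7 to 10 signalling genes higher, and 1 ligand lower (Cxcl5) without array 4. In these fits 7.99% to 8.15% of all probe sets were higher, and 1134 were lower without array 4. The cause of these changes was not tested. Where arrays or probe sets were left out, how many were left and which ones changed together. Of all 12422 probe sets, 1026 were called higher and 1412 lower. Leaving out an array of batch 1, 2 or 3 gave 900, 710 and 521 higher and 983, 571 and 225 lower. Most receptors lie in the dim range of the array, where a small difference cannot be separated from the spread between arrays.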
